A study of Drosophila melanogaster with 16 samples.

Results

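The heads of flies carrying the same long repeat transgene at different insertion sites were compared: 4 libraries of flies expressing 160R from chromosome 3 (Chrom3-160R) against 4 libraries of flies expressing 160R from chromosome 2 (Chrom2-160R), 8 of the 16 libraries of the study. All flies were male Drosophila melanogaster, 5 to 8 days after eclosion, grown on standard medium at 25 °C, and total RNA was sequenced without poly(A) selection. The other 8 libraries came from flies expressing the short repeat, 5R, from the same chromosomes (Chrom2-5R and Chrom3-5R), and served here to ask whether a difference between the insertion lines was also present without the long repeat. The study models C9ORF72 frontotemporal dementia and amyotrophic lateral sclerosis. The labels name no driver, genetic background, cross or batch for any line, and each chromosome is represented by 1 line per repeat length. How strongly each line expressed its transgene cannot be read from the count tables, which list fly genes only.

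In the human disease a GGGGCC repeat within an intron of C9ORF72 is expanded. The repeat RNA gathers in nuclear foci and is also translated, without a start codon, into dipeptide repeat proteins, and fly models are used to set these products apart. A transgene inserted at a different site can be expressed at a different level, and it also comes with a different set of flanking and background alleles, so a contrast between insertion lines holds both kinds of difference and the line that carries an allele cannot be told apart from the site of the transgene. Heads are a mixed tissue in which photoreceptors, brain neurons, glia, fat body, muscle and cuticle all contribute RNA. In such bulk samples fewer cells of a type and less RNA per cell cannot be told apart.

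Levels are given as CPM, counts scaled to a common library total, and changes as log2 fold changes of Chrom3-160R over Chrom2-160R with their standard error (SE), so that a positive value is higher in Chrom3-160R. A call is an adjusted p (Benjamini-Hochberg, over all genes tested) below 0.05 in edgeR's quasi-likelihood test. The libraries held 19047916 to 30496479 counts in Chrom2-160R and 48118158 to 49792428 in Chrom3-160R, a 1.96-fold difference in the mean, so insertion line and depth cannot be told apart by the design. The counts of calls between the 160R lines, over all genes and over gene lists, were therefore also made after thinning the 8 libraries at random to 19047916 counts each. The labels do not say whether the replicates came from separate crosses or collections, so each p-value is set against library-to-library spread that may be technical. As markers of the head, photoreceptor genes summed to 28130 to 39040 CPM in the 8 libraries. Of 15 female genes looked for, 6 passed the filter on low counts, at 30.36 to 36.31 CPM in all.

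Before the comparison, markers of other tissues were checked in each library. Chrom2-160R replicate 1 stood apart: of 18 male germline and accessory gland genes, the 8 that passed the filter summed to 119.2 CPM, against 8.737 to 13.31 CPM in replicates 2 to 4 of that group and 7.659 to 8.299 CPM in Chrom3-160R. Peb, 1 of these 8, alone gave 99.9 of the 119.2 CPM. Of the 18 genes 17 had their highest level among the 160R libraries in Chrom2-160R replicate 1, and none was at 0 in all of them. Muscle genes also summed highest there, to 16590 CPM while replicates 2 to 4 of that group had 10320 to 10640 CPM and Chrom3-160R 7493 to 11210 CPM. Replicate 2 of Chrom2-160R stood apart by a handful of genes described with the decreases. What these tissues contribute to the results was not tested, and values without Chrom2-160R replicate 1, and without replicates 1 and 2, stand beside the results they move.

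Of 13525 genes tested, 3043 (22.5%) were called between Chrom3-160R and Chrom2-160R. In Chrom3-160R 1593 genes (11.8%) were higher and 1450 (10.7%) lower. At a change of at least 1.5-fold 606 genes (4.48%) were called, 423 (3.13%) higher and 183 (1.35%) lower. After thinning to equal totals, 5 random draws gave 2084 to 2158 called genes, of which 451 to 480 changed at least 1.5-fold. The 183 genes lower by that much were 116 to 128 in these draws and 106 with the stricter filter on low counts. Of the 3043 calls, 63.4% to 65.7% were still called in the thinned libraries and 0 were called with the other sign. The 8 160R libraries fitted alone without thinning gave 2514 calls. With plain library totals in place of composition factors the split was 2588 higher and 674 lower of 3262, and the median log2 change of all genes moved from 0.001 to 0.076. Both groups had non-overlapping CPM values, 4 against 4, for 3263 genes (24.1%), and 2519 (18.6%) were called as well.

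**Figure D1:**
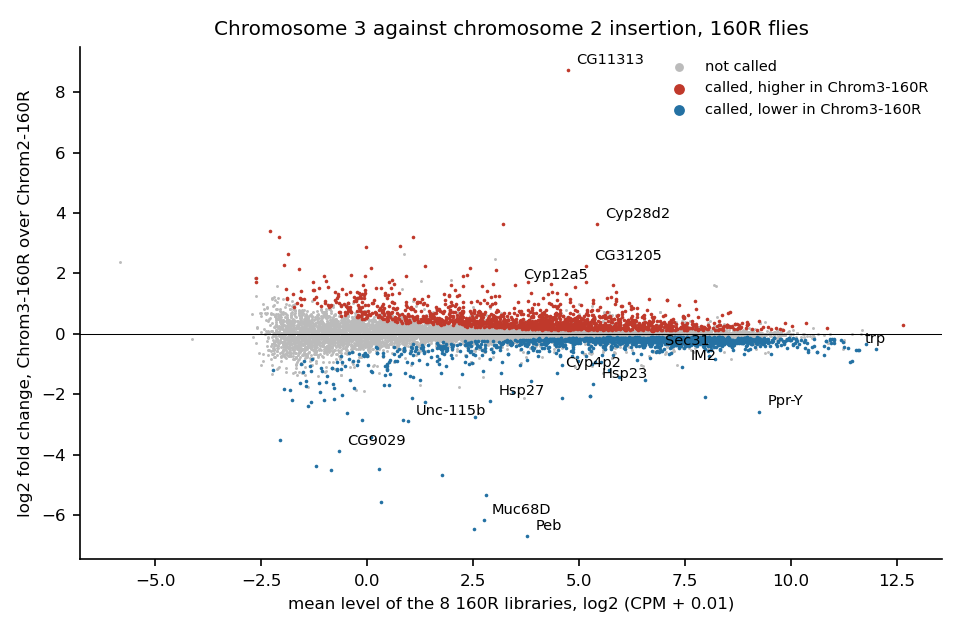
Log2 fold change of Chrom3-160R over Chrom2-160R (vertical) against the mean level of the 8 160R libraries on a log2 scale (horizontal), 1 point for each of 13525 genes, red and blue for the 1593 higher and 1450 lower calls. CG11313 stands at the top with a log2 change of 8.73, and Peb lies lowest at -6.69.

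The 10 largest increases included Cyp28d2, Ugt37b1, Mdr50 and Obp99a, and 6 genes known by number only. CG11313 (FBgn0039798, 3R:30729837-30731165 in the coordinates of the deposited files, build BDGP6) had 0.101, 0.107, 0.0675 and 0.196 CPM in Chrom2-160R (2, 2, 2 and 6 counts in replicates 1 to 4) and 59.2, 55.6, 52.2 and 45 CPM in Chrom3-160R. No value of either group came near the other, and the log2 change was 8.73 ± 0.317 (SE; edgeR adjusted p = 8.18e-10). The same gene parted the 5R lines, at a mean of 0.253 ± 0.219 CPM (SD, n = 4) in Chrom2-5R and 23.2 ± 5.09 CPM in Chrom3-5R.

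Cyp28d2 (2L:5207267-5209345), a cytochrome P450, had 6.03, 6.55, 6.17 and 6.66 CPM in Chrom2-160R and 81.8, 78.2, 74.1 and 82.3 CPM in Chrom3-160R. Within each group the libraries lay close together and the groups were far apart (log2 change 3.64 ± 0.0802, edgeR adjusted p = 4.34e-15). Unlike CG11313 it was level between the 5R lines, with 7.69 ± 0.291 CPM in Chrom2-5R and 7.39 ± 1.05 CPM in Chrom3-5R (SD, n = 4), and the difference between the line contrasts was 3.70 ± 0.114 (edgeR adjusted p = 1.18e-12).

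Ugt37b1, a UDP-glycosyltransferase, was at 0.203 to 0.62 CPM in Chrom2-160R and at 3.09 to 4.53 CPM in Chrom3-160R (log2 change 3.19, edgeR adjusted p = 3.13e-06). CG33926 was at 1.25 to 1.47 CPM in Chrom2-160R and at 13.9 to 21.3 CPM in Chrom3-160R, and none of these genes had overlapping groups. CG31205 had 14.9, 12.5, 11.5 and 11.5 CPM in Chrom2-160R and 64.4, 60.2, 59.5 and 52.1 CPM in Chrom3-160R, a log2 change of 2.23 ± 0.0945. Mdr50, an ABC transporter of the multidrug resistance family, had 1.32 to 2.45 CPM against 6.85 to 11.9 CPM. Obp99a, an odorant-binding protein, was low in both groups, at 0.107 to 0.963 CPM in Chrom2-160R and 2.18 to 4.84 CPM in Chrom3-160R. The remaining large increases were in CG30091 (1 to 15 counts in each Chrom2-160R library and 63 to 121 in each Chrom3-160R library), CG18673 and CG34456. CG34456 overlaps Klp67A on the other strand, which has 7.519 times its counts, so its reads are uncertain.

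The 5 other genes higher with the smallest p were Cyp12a5, another P450, Dhc98D, a dynein heavy chain, and CG6310, CG13794 and CG16965. Cyp12a5 had 5.52, 5.69, 5.03 and 5.78 CPM in Chrom2-160R and 17.3, 16.8, 17.9 and 15.2 CPM in Chrom3-160R. Dhc98D had 4.8 to 7.65 CPM against 19.6 to 22.2 CPM. Neither gene's groups overlapped, and their log2 changes were 1.61 ± 0.099 and 1.73 ± 0.119. These 15 increases kept their call and sign under each alternative that could change them. Leaving out overlapping genes dropped CG34456 and CG16965 and could not change the others. CG16965 overlaps CG6686, with 3.893 times its counts.

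**Figure D2:**
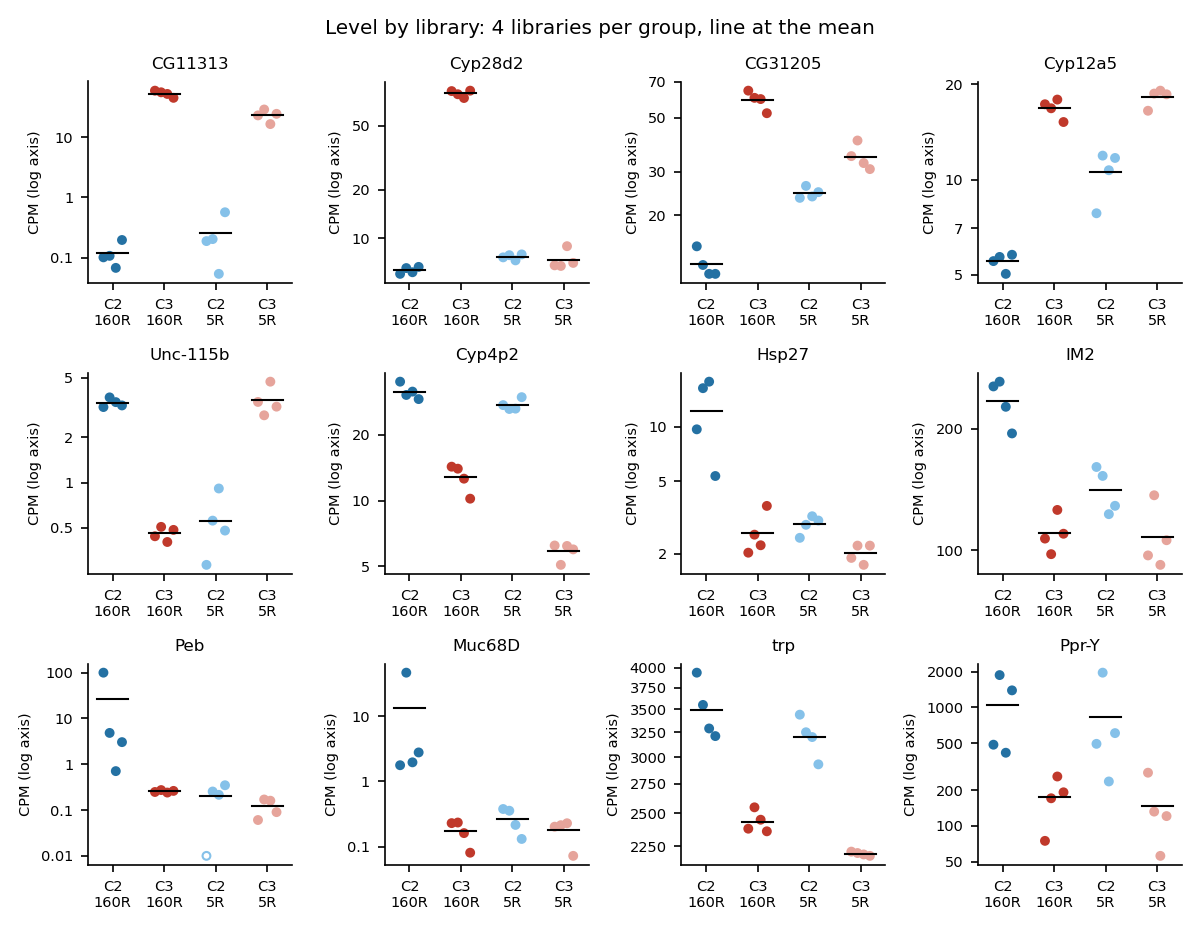
CPM on a log axis in each library for 12 genes named in the text, with C2 and C3 for the chromosome 2 and 3 insertions, the black line at the group mean, and an open circle for a library at 0. Cyp28d2 is high in Chrom3-160R alone, Unc-115b is high in Chrom2-160R and Chrom3-5R, and Peb and Muc68D are each led by 1 Chrom2-160R library.

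Many detoxification enzymes were higher in Chrom3-160R. Cytochrome P450 enzymes oxidise fatty acids, hormones, plant compounds and insecticides, and glutathione S-transferases and UDP-glycosyltransferases couple such products to soluble groups. Of 81 P450 genes tested, 37 were higher, 2 lower and 42 uncalled, against 11.8% higher and 10.7% lower over all genes. Their median log2 change was 0.23, against 0.0012 over all genes. Without Chrom2-160R replicate 1 that median was 0.36, with 45 genes higher. The called increases ran from 0.19 for Cyp303a1 to 3.64 for Cyp28d2. Their summed level was 3217 to 3534 CPM in Chrom2-160R and 3920 to 4369 CPM in Chrom3-160R, with no overlap. Thinned libraries gave 27 to 30 higher calls, and 25 were left when genes that overlap a gene with at least as many counts were dropped. Between the 5R lines 29 of the 81 were higher and 7 lower, with a median of 0.15.

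Only 2 P450 genes were lower in Chrom3-160R. Cyp4p2 had 35.1, 30.5, 31.6 and 29.2 CPM in Chrom2-160R and 14.3, 14, 12.6 and 10.2 CPM in Chrom3-160R. That is a clear gap between groups (log2 change -1.31 ± 0.0922, edgeR adjusted p = 1.21e-07), and the decrease was larger between the 5R lines, at -2.23. Cyp4p3 was lower by a log2 change of -0.21 (edgeR adjusted p = 0.00527, 0.071 with plain library totals, 0.0611 and 0.0899 in 2 thinned draws, 0.00258 to 0.0899 over all alternatives). Both overlap hig on the other strand, which has 39.11 times the counts of Cyp4p2 and 34.67 times those of Cyp4p3.

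UDP-glycosyltransferases changed in both directions, with 7 of 17 higher and 3 lower, against 11.8% and 10.7% of all genes tested. Their median was 0.23, and 1 was lower without Chrom2-160R replicate 4. Ugt58Fa had 4.29 to 5.73 CPM in Chrom2-160R and 10.4 to 12.7 CPM in Chrom3-160R. Ugt86Di went the other way, from 2.71 to 3.17 CPM down to 1.64 to 1.69 CPM (log2 change -0.85, edgeR adjusted p = 0.000248, but 0.288 when all 16 libraries were thinned, over a range of 2.4e-07 to 0.288). Ugt86De was also lower, at -0.52, with an adjusted p of 0.0145, which was 0.0546 without Chrom2-160R replicate 4, 0.168 with all 16 libraries thinned, and 0.00374 to 0.168 over all alternatives. Of 33 glutathione S-transferases 10 were higher (6 without Chrom3-160R replicate 1) and 4 lower, against 11.8% and 10.7% of all genes tested. Their median log2 change of 0.07 was 0.13 without Chrom2-160R replicate 1, 0.11 without Chrom3-160R replicate 3 and 0.12 to 0.19 after thinning. The number lower was 2 without any 1 of Chrom2-160R replicates 1, 3 and 4 and Chrom3-160R replicates 1 and 4, and 1 without Chrom3-160R replicate 3. GstZ2 rose from 28.3 to 35.1 CPM to 51.2 to 67.4 CPM, a log2 change of 0.89 ± 0.0839. GstE9 rose from 65.7 to 77.3 CPM to 81.6 to 99.5 CPM. GstE1 was lower, at 52.2 to 64.1 CPM in Chrom2-160R and 37.2 to 43 CPM in Chrom3-160R. GstD2 was lower at -0.54 with an edgeR adjusted p of 0.0176, which was lost without Chrom2-160R replicate 1 (0.0693), Chrom3-160R replicate 1 (0.0514) or Chrom3-160R replicate 3 (0.0514), with both Chrom2-160R replicates 1 and 2 left out (0.234) and in 2 thinned draws (0.0518 and 0.155), over a range of 0.00651 to 0.234.

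The fat body stores lipid and secretes haemolymph proteins. Of 23 of its genes 8 were higher and 0 lower (1 lower at an unadjusted p below 0.05, 0 in DESeq2 and in limma-voom), against 11.8% and 10.7% of all genes. Their median was 0.22. The number higher fell to 5 without Chrom2-160R replicate 2 and to 4 without Chrom3-160R replicate 1, and 1 gene was lower without Chrom2-160R replicate 4 or Chrom3-160R replicate 4. Without Chrom2-160R replicate 1 the median was 0.34, with 10 genes higher. The 5R lines went the other way, with 3 of the 23 genes higher and 8 lower and a median of -0.11. Brummer (bmm), a triglyceride lipase, had 68.4, 60.9, 68.6 and 62 CPM in Chrom2-160R and 101, 99.2, 97.9 and 107 CPM in Chrom3-160R. These groups did not overlap, and the log2 change was 0.64 ± 0.111 (edgeR adjusted p = 0.000942). Lip4, another lipase, rose from 36.4 to 46.2 CPM to 57.6 to 71.9 CPM. Lsp1beta, a larval storage protein, had 28.2 to 45.3 CPM in Chrom2-160R and 48.5 to 124 CPM in Chrom3-160R, with an edgeR adjusted p of 0.0421. Its call ended without any 1 of 6 of the 8 160R libraries (all but Chrom3-160R replicates 2 and 3; adjusted p up to 0.133), and its adjusted p ranged from 0.00921 to 0.175 over all alternatives.

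Juvenile hormone, which controls maturation and reproduction in insects, is broken down by the epoxide hydrolases Jheh2 and Jheh3. Jheh2 was at 108 to 116 CPM in Chrom2-160R and 132 to 160 CPM in Chrom3-160R, and Jheh3 at 25.2 to 26.5 CPM against 31.8 to 36.1 CPM. The hormone's 18 genes had 5 higher and 1 lower, against 11.8% and 10.7% of all genes tested. Of 14 digestive enzymes 4 were higher and 0 lower (1 at an unadjusted p below 0.05, 0 in DESeq2 and in limma-voom), and 2 were higher without Chrom2-160R replicate 2, Chrom2-160R replicate 4 or Chrom3-160R replicate 1. The lysosomal mannosidase LM408 rose from 260 to 319 CPM to 435 to 537 CPM (log2 change 0.74 ± 0.0712). The alpha-glucosidase tobi had 58.1, 14.1, 15.3 and 23.4 CPM against 102, 81.6, 69.9 and 83.6 CPM. Its groups did not overlap, but Chrom2-160R replicate 1 lay well above the other libraries of its group, and its edgeR adjusted p of 0.0402 was above the threshold without any 1 of the other 7 160R libraries (0.0566 to 0.108). It was 0.068 with the 160R libraries fitted alone, 0.0703 to 0.0851 after thinning, and 0.00697 to 0.108 over all alternatives.

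**Figure D3:**
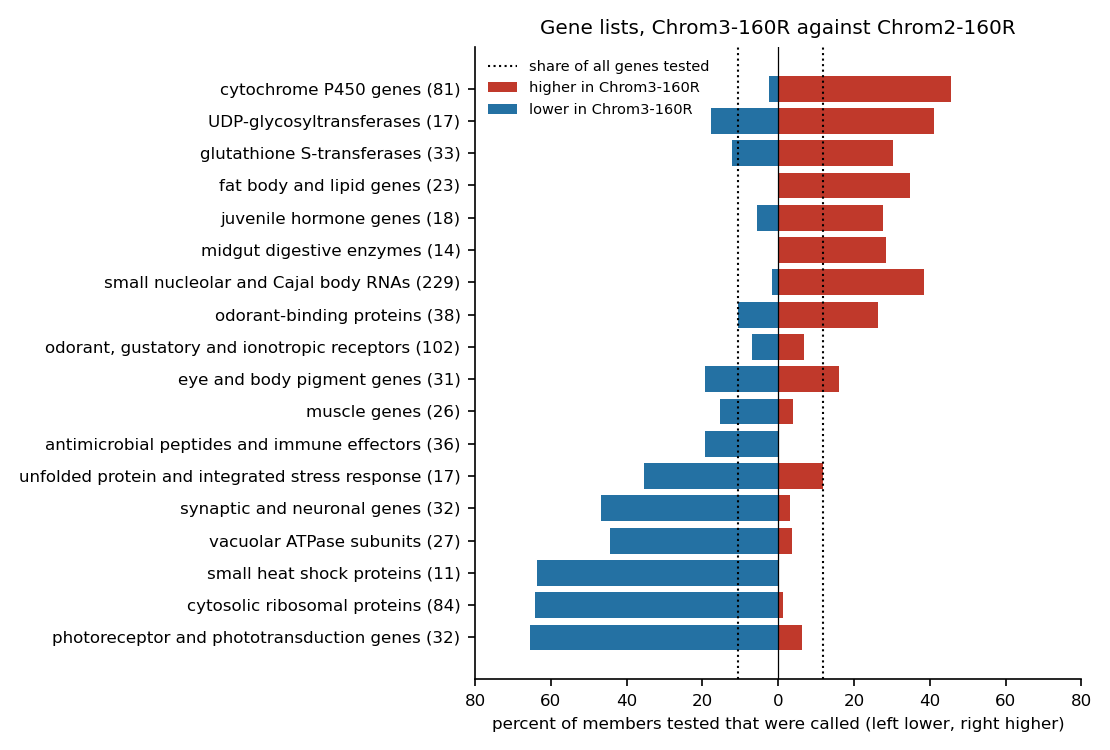
Percent of the tested members of 18 gene lists that were called higher (right, red) or lower (left, blue) in Chrom3-160R, with the number tested in parentheses and dotted lines at the share of all genes (11.8% higher and 10.7% lower). P450 genes and small nucleolar RNAs lie mostly to the right, and photoreceptor, ribosomal protein and small heat shock protein genes mostly to the left.

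The sizes of the largest decreases rested on single libraries. Peb, a protein of the male ejaculatory bulb (2R:25175126-25176715), had 99.9, 4.83, 0.708 and 3.04 CPM in Chrom2-160R and 0.248, 0.273, 0.241 and 0.262 CPM in Chrom3-160R. Replicate 1 was the only library near 100 CPM, and the groups nevertheless did not overlap. The log2 change was -6.69 ± 1.45 (edgeR adjusted p = 0.00598), and -3.41 without that library. Other members of its list of male germline and accessory gland genes were high in that library as well. The call was lost with the 8 160R libraries fitted alone (0.0682), after thinning (0.0952 to 0.101) and in limma-voom (0.195), over a range of 4.34e-08 to 0.195.

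Another group of low genes was high in Chrom2-160R replicate 2. Muc68D, a mucin-like gene (3L:11767299-11772157), had 1.77, 46.5, 1.96 and 2.78 CPM in Chrom2-160R and 0.0806 to 0.234 CPM in Chrom3-160R. Its log2 change was -6.16 ± 1.21, and -3.60 without replicate 2. CG34324 (41 CPM), CG14645 (49 CPM), CG3906 (22.6 CPM) and CG14125 (8.37 CPM) showed the same single high library. Leaving out replicate 2 changed their log2 values from -6.45 to -3.59, from -5.32 to -2.52, from -4.68 to -2.22 and from -5.57 to -3.24. All 5 genes kept their call without that library, and each of the other Chrom2-160R libraries lay above every Chrom3-160R library.

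The 5 calls ended when the 160R libraries were fitted alone, with edgeR adjusted p-values of 0.0522 for Muc68D, 0.0585 for CG34324, 0.071 for CG14645, 0.073 for CG3906 and 0.0648 for CG14125. All but CG14125 also ended after thinning and in limma-voom. Over all alternatives the adjusted p ranged from 5.02e-06 to 0.085 for Muc68D, 1.02e-05 to 0.098 for CG34324, 0.000118 to 0.116 for CG14645, 0.000251 to 0.129 for CG3906 and 0.000402 to 0.0648 for CG14125. CG34324 overlaps Neto with 28.62 times its counts and CG14645 overlaps Skp2 with 2.949 times its counts. CG17097 was led by Chrom2-160R replicate 1 (6.18 CPM against 0.371 to 0.644 in the others), with a log2 change of -3.42, and -1.55 without it. Its adjusted p was 0.0113, and 0.0868 in the fit of the 160R libraries alone (range 0.00509 to 0.0868).

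Other decreases did not depend on 1 library. CG15510 had 0.912, 1.93, 2.46 and 3.89 CPM in Chrom2-160R and 0.172, 0.0779, 0.1 and 0.0605 CPM in Chrom3-160R, a log2 change of -4.47 ± 0.408. It overlaps CG42592, which had a change of -4.50, and reads in the overlap cannot be told apart. CG9029 had 1.82, 0.966, 0.945 and 0.914 CPM against 0.0191, 0.039, 0.161 and 0.0806 CPM, and was also lower between the 5R lines by a log2 change of -4.08. Sec31, a subunit of the COPII coat that carries cargo out of the endoplasmic reticulum, had 136, 129, 140 and 140 CPM in Chrom2-160R and 90.9, 94.4, 86.8 and 95.2 CPM in Chrom3-160R. Its change was modest but tight, with a log2 change of -0.57 ± 0.0374 (edgeR adjusted p = 6.9e-08). CG7675 showed a like decrease, from 106 to 111 CPM to 67.3 to 71.1 CPM.

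Small heat shock proteins, which hold unfolded proteins and are induced by stress, were lower in Chrom3-160R. Of 11 tested, 7 were lower and 0 higher (0 at an unadjusted p below 0.05, 0 in DESeq2 and in limma-voom), against 10.7% and 11.8% of all genes. Their median log2 change was -0.57. Hsp27 (3L:9384063-9385694) had 9.68, 16.3, 17.7 and 5.36 CPM in Chrom2-160R and 2.03, 2.55, 2.23 and 3.67 CPM in Chrom3-160R. Hsp23 had 52.6, 77.2, 87.1 and 28.6 CPM against 15.1, 17.1, 17 and 28.4 CPM. For both genes Chrom2-160R replicate 4 was the lowest of its group and Chrom3-160R replicate 4 the highest of its own, and for Hsp23 these libraries nearly met. The log2 changes were -2.22 ± 0.305 (edgeR adjusted p = 0.000207) and -1.66 ± 0.293 (0.00164). Hsp22 and Hsp67Bb, both among the 7, overlap each other and had nearly the same CPM in every library, each with a log2 change of -2.05. Their reads cannot be told apart, so they are not separate decreases. With Chrom2-160R replicates 1 and 2 both left out, 3 of the 11 were lower. The number lower was 5 in each thinned draw and with the 160R libraries fitted alone. Between the 5R lines 1 of the 11 was higher and 1 lower, with a median of -0.17.

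In the 5R lines Hsp27 was at 2.9 ± 0.331 CPM on chromosome 2 and 2.02 ± 0.24 CPM on chromosome 3 (SD, n = 4). The inducible Hsp70Bc was lower too, at 1.31 to 2.31 CPM in Chrom2-160R and 0.682 to 0.988 CPM in Chrom3-160R (log2 change -1.08 ± 0.205). Of 21 genes of the wider Hsp70 and Hsp90 list 3 were higher and 4 lower, against 11.8% and 10.7% of all genes tested. Hop, a co-chaperone, was higher by a log2 change of 0.52 with an edgeR adjusted p of 0.00901, which was 0.11 with Chrom2-160R replicates 1 and 2 left out and 0.0505 with the 160R libraries alone (range 1.24e-05 to 0.11). Chaperones of the endoplasmic reticulum were lower, Hsc70-3 from 498 to 531 CPM to 383 to 457 CPM, and Gp93 from 160 to 185 CPM to 99.1 to 125 CPM. Among 17 genes of the unfolded protein response and the integrated stress response 6 were lower and 2 higher, and the number lower was 3 without Chrom2-160R replicate 4, Chrom3-160R replicate 2 or Chrom3-160R replicate 4, and 2 without Chrom3-160R replicate 3 or with plain library totals. Atf6, a sensor of unfolded proteins, was higher by a log2 change of 0.25 ± 0.0547.

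Photoreceptor genes were lower in Chrom3-160R across the phototransduction cascade, which in flies runs from rhodopsin through a phospholipase C to the TRP channels. Of 32 tested, 21 were lower and 2 higher, against 10.7% and 11.8% of all genes, with a median of -0.22. The channel trp (3R:29914521-29920289) had 3940, 3550, 3290 and 3210 CPM in Chrom2-160R and 2380, 2550, 2450 and 2360 CPM in Chrom3-160R. All 4 Chrom2-160R libraries were above all 4 Chrom3-160R libraries, with a log2 change of -0.52 ± 0.0609 (edgeR adjusted p = 1.87e-05). Chaoptin (chp), which holds the photoreceptor microvilli together, fell by 0.53 ± 0.0619 on the log2 scale. The called decreases ran from -0.11 for inaE to -0.53 for chp and the arrestin Arr2, which overlaps Pex7, and the main rhodopsin, ninaE, was among them at -0.51. Between the 5R lines 19 of the 32 genes were lower and 2 higher, with a median of -0.29. The gene ninaG, which acts in making the rhodopsin chromophore, was 1 of the 2 higher in Chrom3-160R, at 0.49 (edgeR adjusted p = 0.0335). Its call ended without any 1 of 6 of the 8 160R libraries (all but Chrom3-160R replicates 2 and 3; up to 0.0882), in the fit of the 160R libraries alone (0.0741), after thinning (0.0546 to 0.12), in limma-voom (0.0649) and with both Chrom2-160R replicates 1 and 2 left out (0.201; range 0.00616 to 0.201).

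Of 32 synaptic and neuronal genes tested, 15 were lower and 1 higher, against 10.7% and 11.8% of all genes. Their median was -0.15, and 8 were lower with plain library totals. Between the 5R lines 4 were lower and 8 higher, with a median of 0.04. When all genes were cut into 5 classes by mean level, the highest class of 2705 had 742 lower and 217 higher in Chrom3-160R, with a median of -0.06. Neuronal synaptobrevin (nSyb), a vesicle protein, had 855, 893, 912 and 911 CPM in Chrom2-160R and 708, 705, 722 and 710 CPM in Chrom3-160R. The groups were well separated (log2 change -0.33 ± 0.0465, edgeR adjusted p = 0.000108). Syx1A, its partner on the presynaptic membrane, was lower by a log2 change of -0.26, but overlaps 4EHP on the same strand, with 2.078 times its counts. The serotonin transporter SerT had the largest called decrease of the list, at -0.34.

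Of 84 cytosolic ribosomal protein genes tested, 54 were lower, 1 higher and 29 uncalled, with a median of -0.24. The shares over all genes were 10.7% lower and 11.8% higher. RpS30 had 328, 327, 299 and 291 CPM in Chrom2-160R and 241, 242, 232 and 234 CPM in Chrom3-160R. RpS25 had 346, 318, 290 and 295 CPM against 257, 243, 237 and 242 CPM. Both pairs of groups were apart, with log2 changes of -0.39 ± 0.0709 and -0.35 ± 0.0692. The 1 higher gene was RpS15Ab, a paralog of another ribosomal protein gene, at 14.6 to 17.4 CPM in Chrom2-160R and 19.4 to 20.9 CPM in Chrom3-160R.

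The number of lower ribosomal protein genes was sensitive to the libraries. It was 34 without Chrom3-160R replicate 2, 33 without Chrom3-160R replicate 3, 33 with plain library totals, 9 with Chrom2-160R replicates 1 and 2 both left out, and 53 to 54 after thinning. The summed level was 27480, 25230, 23870 and 23480 CPM in replicates 1 to 4 of Chrom2-160R and 20450 to 22230 CPM in Chrom3-160R. Replicates 1 and 2 were the higher ones of their group, and every Chrom2-160R library lay above every Chrom3-160R library. Of the 84 genes, 80 were lower and 0 higher between the 5R lines, with a median of -0.53.

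**Figure D4:**
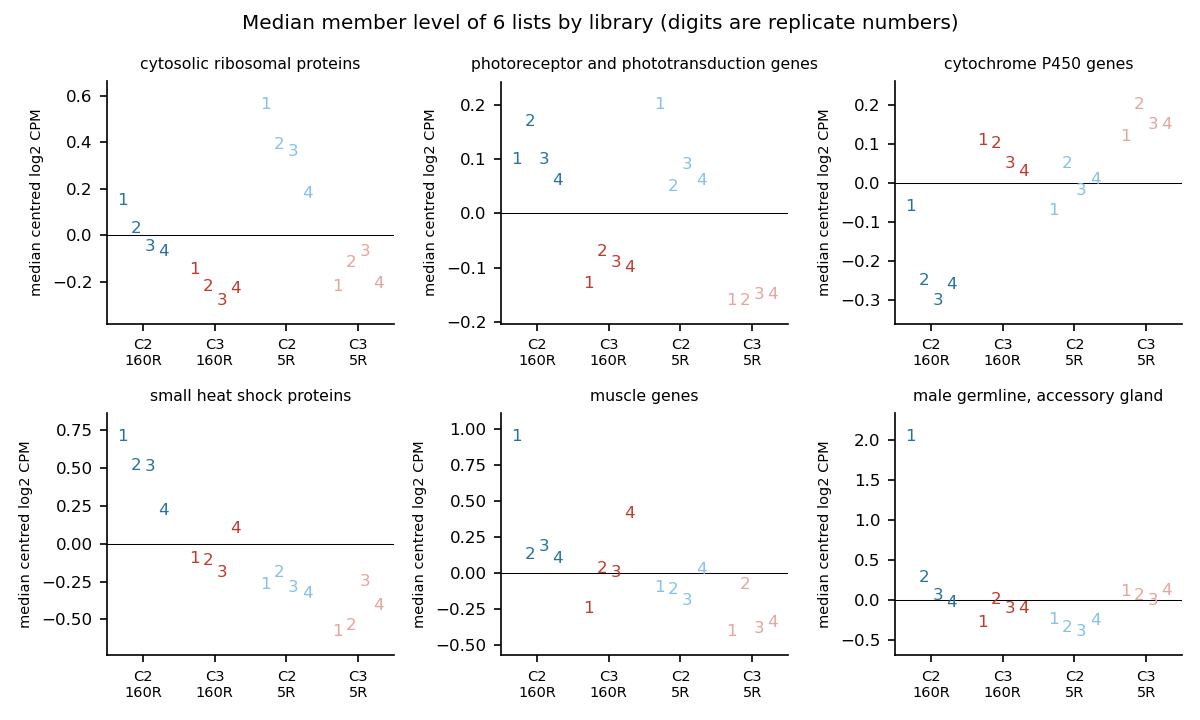
Median over a list's members of log2 CPM centred on each gene's mean over all 16 libraries (vertical), with 1 digit per library for its replicate number, in the 4 groups. Ribosomal protein, photoreceptor and P450 genes part the 160R lines, and Chrom2-160R replicate 1 stands high for muscle (0.95) and for male germline and accessory gland genes (2.05).

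Vacuolar ATPase subunits acidify lysosomes and synaptic vesicles. Of 27 tested, 12 were lower and 1 higher, against 10.7% and 11.8% of all genes, with a median of -0.14 (7 lower with plain library totals). Between the 5R lines 14 were lower and 2 higher, with a median of -0.21. Vha68-1 had 519 to 624 CPM in Chrom2-160R and 406 to 456 CPM in Chrom3-160R. Vha16-1 had a log2 change of -0.35 ± 0.0481. Muscle genes were mostly uncalled, with 4 of 26 lower and 1 higher, against 10.7% and 11.8% of all genes. Their median of -0.32 was -0.072 without Chrom2-160R replicate 1. Without that library 2 were lower and 3 higher. The number lower was also 2 without any 1 of Chrom3-160R replicates 1, 2 and 3, and the number higher was 0 without Chrom2-160R replicate 3. The arginine kinase Argk had a log2 change of -0.42 ± 0.0657 and Zasp66, a protein of the muscle Z disc, one of -0.29 ± 0.0638, and both kept their call without Chrom2-160R replicate 1 (-0.35 and -0.25).

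Of 36 immune effectors tested, 7 were lower and 0 higher in edgeR (3 higher at an unadjusted p below 0.05, 1 in DESeq2 and 0 in limma-voom). Between the 5R lines 6 were lower and 0 higher. IM2, a short immune-induced peptide (2R:18386602-18387030), had 255, 262, 227 and 195 CPM in Chrom2-160R and 107, 97.9, 126 and 110 CPM in Chrom3-160R. The highest Chrom3-160R library was well below the lowest Chrom2-160R library, and the log2 change was -1.09 ± 0.136 (edgeR adjusted p = 1e-04). The related IM3 had 110 to 146 CPM in Chrom2-160R and 64.9 to 81 CPM in Chrom3-160R. In the JAK-STAT list, 3 of 11 were higher and 2 lower, against 11.8% and 10.7% of all genes tested. TotX, a stress-induced secreted peptide, rose from 6.99 to 9.02 CPM to 19.6 to 22.1 CPM, but overlaps CG5621 with 3.172 times its counts. The transcription factor Stat92E was higher by a log2 change of 0.23 ± 0.0322 and the receptor dome lower by one of -0.22 ± 0.0457.

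Small nucleolar and Cajal body RNAs, which guide the modification of ribosomal and spliceosomal RNA mostly lie in introns of host genes. Of 229 tested, 88 were higher and 4 lower, against 11.8% and 10.7% of all genes, with a median of 0.51. Between the 5R lines 104 were higher and 5 lower, with a median of 0.64. The counts do not separate them from their hosts: 219 of the 229 overlap a gene with at least 0.5 times their counts. In Chrom3-160R 4 were higher when genes that overlap one with at least as many counts were dropped. The members left after that had a median log2 change of 0.70, against 0.51 over the 229. One without an overlapping partner, the snoRNA at 2R:13557905-13558055, had 2.38, 2.68, 2.7 and 2.65 CPM in Chrom2-160R and 6.5, 6.04, 5.47 and 6.61 CPM in Chrom3-160R. The groups were clearly apart (log2 change 1.24 ± 0.14, edgeR adjusted p = 1.43e-05). An RNA inside the host gene dom, snoRNA:Psi18S-841c, showed a log2 change of 1.53 ± 0.18 with 172.5 times its counts in the host. Among the 4 lower were RNAs at X:13128596-13128630 (-0.43) and at 3L:5567885-5567961 (-0.42), which overlap CG32638 with 10.09 and Msr-110 with 14.27 times their counts. The call of the latter ended with Chrom2-160R replicates 1 and 2 both left out (edgeR adjusted p = 0.0794, from 0.013; range 0.000933 to 0.0794).

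Of 38 odorant-binding proteins 10 were higher and 4 lower, and of 102 chemoreceptors 7 were higher and 7 lower. Over all genes tested 11.8% were higher and 10.7% lower. Of the chemoreceptors 4 were lower without Chrom2-160R replicate 2 or Chrom3-160R replicate 2, 3 or 4, and after thinning 2 to 6 were lower and 3 to 7 higher. Of the odorant-binding proteins 5 were higher with Chrom2-160R replicates 1 and 2 left out and 4 to 7 after thinning. Obp57a and Obp57b, neighbours in the genome, were both higher, Obp57a at 11.6 to 14.7 CPM in Chrom2-160R and 17.3 to 22.3 CPM in Chrom3-160R, and Obp57b at 24.5 to 25.7 CPM and 33.1 to 41.3 CPM. Obp56d and Obp56g were lower, with log2 changes of -0.37 ± 0.0538 and -0.40 ± 0.0688. Or65c rose from 0.751 to 0.963 CPM to 1.87 to 2.69 CPM. Ir92a, a receptor for ammonia, had 0.203, 0.698, 0.27 and 0.457 CPM in Chrom2-160R and 1.89, 1.32, 1.53 and 1.31 CPM in Chrom3-160R, a log2 change of 1.92 ± 0.396. Ir68a, a receptor of moist air, was lower, at 7.09 to 8.51 CPM in Chrom2-160R and 4.53 to 5.24 CPM in Chrom3-160R. Or19b was lower at -0.59 (edgeR adjusted p = 0.00148, 0.0624 in 1 thinned draw, range 5.27e-05 to 0.0624).

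The eye pigment gene vermilion (v), a tryptophan oxygenase, had 35.2, 33.9, 33.7 and 34 CPM in Chrom2-160R and 52.9, 50.1, 46.7 and 43.2 CPM in Chrom3-160R. Its groups did not overlap (log2 change 0.50 ± 0.0605, edgeR adjusted p = 2.85e-05). The melanin enzyme yellow-f2 was higher by 0.63 ± 0.113, tan (t) was lower by a log2 change of -0.29 ± 0.0654, and dopa decarboxylase (Ddc) was lower by one of -0.19 (edgeR adjusted p = 0.00377, 0.0771 with plain library totals, range 0.000145 to 0.0771). The clock neuropeptide Pdf was higher, at 27.5 to 34.2 CPM in Chrom2-160R and 38.1 to 44.7 CPM in Chrom3-160R, and proctolin (Proc) lower, at 51.7 to 59.1 CPM and 40.4 to 46.2 CPM. Of 35 neuropeptide genes 3 were higher and 6 lower, against 11.8% and 10.7% of all genes tested.

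Fly orthologs of ALS and FTD genes had 1 of 20 higher and 3 lower, nuclear pore and transport genes 2 of 37 higher and 2 lower, RNA-binding and splicing proteins 3 of 35 higher and 2 lower, autophagy genes 3 of 25 higher and 2 lower, and cell death and DNA damage genes 4 of 22 higher and 0 lower (2 at an unadjusted p below 0.05, 1 in DESeq2 and 1 in limma-voom). Their median log2 changes were 0, -0.04, 0, 0.01 and 0.05. Over all genes tested 11.8% were called higher and 10.7% lower. Several of the list counts rested on single libraries. RNA-binding proteins lower were 7 without Chrom2-160R replicate 1 and 1 without Chrom2-160R replicate 2 or Chrom3-160R replicate 2, 3 or 4. Nuclear pore genes lower were 0 without Chrom3-160R replicate 2 or 3 and 1 without Chrom3-160R replicate 1 or any Chrom2-160R library, and those higher were 1 without Chrom2-160R replicate 2 or 3 or Chrom3-160R replicate 1 or 2. Cell death genes higher were 2 without Chrom2-160R replicate 4 or Chrom3-160R replicate 1, and without the latter 1 was lower. ALS and FTD orthologs higher were 2 without Chrom2-160R replicate 1 and 0 without Chrom2-160R replicate 2 or 3 or Chrom3-160R replicate 4. Mitf, a regulator of lysosomal genes on chromosome 4, was the autophagy gene with the smallest p, at 87.7 to 95.5 CPM in Chrom2-160R and 111 to 126 CPM in Chrom3-160R. Proteasome subunits had 1 of 41 higher and 0 lower in edgeR, DESeq2 and limma-voom (0 at an unadjusted p below 0.05), and 9 higher without Chrom2-160R replicate 1, in which they summed to 2416 CPM and the other replicates of that group to 1626 to 1659 CPM. Mitochondrially encoded genes had 2 of 37 higher and 1 lower. The number higher was 6 with the 160R libraries fitted alone and in each of the 5 thinned draws, and 1 without any 1 of the 160R libraries other than Chrom2-160R replicate 3. The number lower was 2 without that library and 3 without Chrom2-160R replicate 4. The large ribosomal RNA of mitochondria, mt:lrRNA, was lower by a log2 change of -0.70 (edgeR adjusted p = 0.00414, 0.0656 with Chrom2-160R replicates 1 and 2 left out, range 7.32e-06 to 0.0656), and mt:tRNA:K was higher by 0.99 ± 0.159.

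By chromosome arm, the share called was 21.8% on 2L, 24.7% on 2R, 22.5% on 3L, 22.2% on 3R and 20% on X. It was 44.8% on the small, largely heterochromatic chromosome 4, where 44 of 105 genes were higher and 3 lower in Chrom3-160R, with a median log2 change of 0.138. Genes next to the centromeres of chromosomes 2 and 3, in windows chosen after their values were seen, had 80 of 188 higher and 8 lower (46.8% called, median 0.172). Near the centromere of X 4 of 54 were higher and 4 lower (14.8%), and in the rest of the arms 22% were called. Both chromosome 4 and the centromeric genes showed the same direction between the 5R lines, with medians of 0.3 and 0.349 and shares called of 76.2% and 66%.

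In windows of 1 Mb with at least 20 genes tested, 119 in all, the share called ran from 7.55% to 60.9% around a median of 21.4%. The highest was in 2R:4000001-5000000, within the centromeric part of the arm, with 13 of 23 genes higher and 1 lower. Changes of at least 1.5-fold had a median share of 4.29%. For changes of at least 1.5-fold the highest share, 19.6%, was in 3L:18000001-19000000, where 18 of 92 genes passed, 14 higher and 4 lower.

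On the Y chromosome 4 of 10 genes were lower in Chrom3-160R and 0 higher (0 at an unadjusted p below 0.05). Ppr-Y, a male fertility gene that spans a very long region (Y:1636574-1884846), had 484, 1870, 414 and 1390 CPM in Chrom2-160R and 74.8, 171, 261 and 192 CPM in Chrom3-160R. Its groups did not overlap but varied widely within themselves. The log2 change of -2.57 ± 0.758 (edgeR adjusted p = 0.0287) was 0.0501 in 1 thinned draw and no longer called without Chrom2-160R replicate 2 (0.0805), Chrom2-160R replicate 4 (0.0615), Chrom3-160R replicate 1 (0.0816), Chrom3-160R replicate 2 (0.0677) or Chrom3-160R replicate 4 (0.0587), or with both Chrom2-160R replicates 1 and 2 left out (0.0871), over a range of 0.00261 to 0.0871. The dynein heavy chain gene kl-5 had 119, 223, 116 and 105 CPM against 31.2, 50.5, 64.9 and 47.6 CPM. Its adjusted p of 0.0292 was 0.0909 without Chrom2-160R replicate 2, 0.0873, 0.0634 and 0.0625 without Chrom3-160R replicates 1, 2 and 4, and 0.166 without both Chrom2-160R replicates 1 and 2 (range 0.00384 to 0.166). The other genes lower, named here after their values were seen, were Ory (269 to 814 CPM in Chrom2-160R and 42.9 to 153 CPM in Chrom3-160R, edgeR adjusted p = 0.0425) and PRY (log2 change -0.63, edgeR adjusted p = 0.0371). Of the 4 Y genes lower, 0 were left without Chrom2-160R replicate 2, without Chrom3-160R replicate 2 or 4, or with both Chrom2-160R replicates 1 and 2 left out. The count was 1 without Chrom3-160R replicate 1, 2 without Chrom2-160R replicate 3 or 4, and 2 to 3 after thinning. The 5R lines had 50% of the 10 Y genes called, against 30.3% of all genes tested. The median log2 change of the 10 was -0.656 between the 5R lines and -0.506 between the 160R lines.

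The size and direction of the changes varied with gene length and level. Genes were ranked by span and cut into 5 classes of equal size. In the class of shortest span (median 648 bases) 345 were higher and 159 lower, and in that of longest span (median 15494 bases) 234 were higher and 480 lower. By mean level, the share called rose from 9.54% in the lowest of 5 classes (median 0.562 CPM) to 35.5% in the highest (median 190 CPM), where 217 were higher and 742 lower. The median log2 changes of these classes all lay between -0.06 and 0.067. How far depth or library preparation enters these trends was not tested. The photoreceptor, synaptic, ribosomal protein and vacuolar ATPase lists were set against all genes, not against genes of like level.

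The same contrast between the 5R lines shares no library with that between the 160R lines, although both were made in 1 fit. There 4103 genes (30.3%) were called, 2086 (15.4%) higher and 2017 (14.9%) lower in Chrom3-5R. Of the genes called in the 160R flies, 1499 were also called in the 5R flies with the same sign (790 higher and 709 lower), which is 49.3% of the 160R calls and 36.5% of the 5R calls, and 107 were called with the opposite sign. CG11313, Ugt37b1, CG6310, CG16965, CG9029, Sec31, CG7675, trp and nSyb were among those with the same sign. For 1391 of the 1499 the line differences themselves were not called different between 160R and 5R flies.

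**Figure D5:**
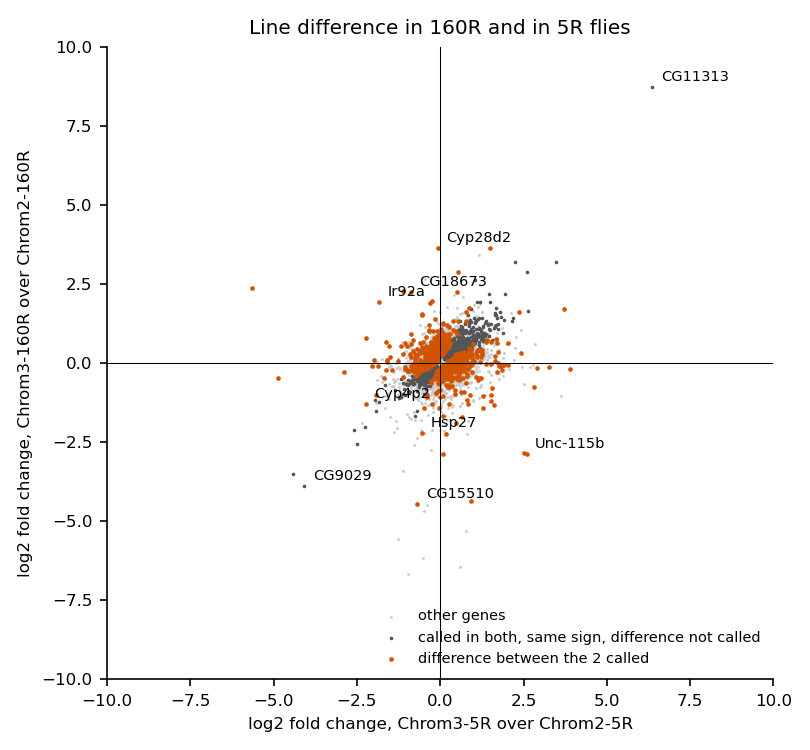
Log2 fold change between the insertion lines in 160R flies (vertical) against that in 5R flies (horizontal), 1 point per gene, with orange for the 983 genes whose line differences differed between 160R and 5R. CG11313 lies high in both, Cyp28d2 high in 160R flies alone, and Unc-115b low in 160R flies and high in 5R flies.

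The line difference itself differed between 160R and 5R flies for 983 genes (7.27%), 528 (3.9%) with a more positive and 455 (3.36%) with a more negative value in 160R flies. Of the P450 list 15 of 81 had a more positive line difference in 160R flies and 4 a more negative one. For fat body genes the counts were 7 and 0 of 23 (0 more negative at an unadjusted p below 0.05). Synaptic genes had 11 of 32 with a more negative value in 160R flies and 1 with a more positive one. Cytosolic ribosomal proteins had 23 of 84 with a more positive value and 0 with a more negative one (0 at an unadjusted p below 0.05). Their medians were lower in the chromosome 3 line by a median of -0.53 in 5R flies and of -0.24 in 160R flies. The total of 983 moved by more than 1.5 times without Chrom2-5R replicate 1 (632), Chrom2-5R replicate 3 (584), Chrom2-5R replicate 4 (1695), Chrom2-160R replicate 2 (600), Chrom3-5R replicate 1 (597), Chrom3-160R replicate 1 (636) or Chrom3-160R replicate 2 (625).

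Unc-115b (3R:9687060-9692775), an actin-binding protein, was called with opposite signs in the 160R and the 5R flies. It had 3.19, 3.7, 3.44 and 3.27 CPM in Chrom2-160R and 0.439, 0.507, 0.402 and 0.484 CPM in Chrom3-160R. In the 5R flies the order was turned round, with 0.283, 0.558, 0.914 and 0.479 CPM in Chrom2-5R and 3.45, 2.81, 4.71 and 3.21 CPM in Chrom3-5R. No library of a low group reached any library of a high group. The line difference was -2.88 ± 0.198 in 160R flies and 2.60 ± 0.222 in 5R flies (edgeR adjusted p of the difference 6.62e-09). Its neighbour p24-2 (3R:9687402-9692794), of the p24 family of cargo receptors, lies on the same strand over nearly the same span and gave -2.84 and 2.52, and the counts do not say which of the pair changed. The estimates of Ir92a had the opposite signs, at 1.92 in 160R and -1.84 in 5R flies, and those of CG18673 were 2.25 and -0.87. For these 2 genes the edgeR adjusted p of the difference was 0.000922 and 0.0032, and calls in 5R flies are not stated.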

How the data were processed

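RNA of fly heads was sequenced on a strand-specific protocol without poly(A) selection, and the authors deposited raw read counts per gene for each library, per the file headers and the labels. Trimmomatic, STAR, bedtools, DESeq and the builds BDGP6 and mm10 are named per the submitters' processing notes, without roles or versions. The files hold 17558 genes, of which 17252 identifiers were found in annotation release 115 and 16977 had the same start and end. Counts were checked for strand: where a gene with at least 100 counts lay inside another, its count stayed at or below that of the outer gene for 1618 of 1622 opposite-strand pairs and 1064 of 1064 same-strand pairs, so counts were read as taken over whole gene spans without strand, and 8335 genes (47.5%) overlap another. Genes overlapping a partner with at least 0.5 times their counts are given with it.

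All 16 libraries were fitted as 4 group means with edgeR 4.0.16 (R 4.3.3; filterByExpr, TMM factors, quasi-likelihood test, Benjamini-Hochberg adjustment over 13525 genes). The SE is the absolute log2 change divided by the square root of F. CPM values use TMM-scaled totals. Alternatives used DESeq2 1.42.0, limma 3.58.1 (voom), other scalings and filters, a replicate block and each library left out. Thinning used seed 160 for all 16 libraries and another seed for each of the 5 draws of the 160R libraries. The alternative without overlapping genes (GenomicRanges 1.54.1) dropped them from the results of the main fit, without a new fit or adjustment. Leaving out both Chrom2-160R replicates 1 and 2 was chosen after seeing the data. The tests were checked on simulated data.

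Genes were named by a rule: called, no overlap between the groups of 4 and a mean of at least 1 CPM in the higher group, then the 10 largest log2 changes in each direction, the next 5 by p in each direction, and up to 2 members of each list by p in each direction (all called members of lists with under 5). Genes at the ends of a list's range, ninaE, Arr2 and the remaining Y genes were named after their values were seen. The comparison and the lists were chosen with earlier results of these data known.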

Additional observations from a re-analysis of the deposited data

Results flagged for a closer look

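In 274 groups of 4 libraries, 28 had 1 library far from the others by Dixon's criterion (0.829). Chrom2-160R replicate 1 was that library in 9 cases and Chrom2-160R replicate 2 in 9. The groups took in 92 genes of this text, named from these same libraries, so the number cannot be set against a rate by chance. In Chrom2-160R replicate 1, Peb was at 99.9 CPM, CG17097 at 6.18 CPM and CG9029 at 1.82 CPM, each the highest of its group, and the snoRNA at 2R:13557905-13558055 at 2.38 CPM, the lowest. In the same library the median centred log2 CPM was highest for male germline and accessory gland genes (2.05), muscle genes (0.95), proteasome subunits (0.44) and sugar metabolism enzymes (0.35), and lowest for chemoreceptors (-0.13). In Chrom2-160R replicate 2 the highest values of the group were 46.5 CPM for Muc68D, 41 CPM for CG34324, 49 CPM for CG14645, 22.6 CPM for CG3906, 8.37 CPM for CG14125, 223 CPM for kl-5, 156 CPM for Obp56g, 3.6 CPM for p24-2 and a median centred log2 CPM of 0.1 for ppk channels. What these libraries share was not tested.

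In Chrom2-160R replicate 4 Hop was highest at 55.4 CPM, and Ir68a (7.09 CPM) and Obp57b (24.5 CPM) were lowest, while Jheh3 was highest in replicate 3 at 26.5 CPM. In Chrom3-160R replicate 4 Hsp23 was highest at 28.4 CPM, CG14125 was at 0 CPM, and chemoreceptors had the lowest median centred log2 CPM (-0.06). In Chrom3-160R replicate 1 CG3906 was highest at 0.306 CPM and Zasp66 lowest at 154 CPM, and dome was lowest in replicate 3 at 56 CPM.

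For 36 of the genes named in the report the line difference of the 160R flies differed from that of the 5R flies in edgeR's test of the difference, given here as the log2 value of 160R minus 5R. It was more positive in 160R flies for the detoxification genes Cyp28d2 (3.70), Cyp12a5 (0.84), Cyp4p2 (0.92), GstZ2 (0.78) and GstE9 (0.47), and more negative for Cyp4p3 (-0.35), Ugt86Di (-1.30) and Ugt86De (-0.84). Metabolic and hormone genes with a more positive value were bmm (0.75), LM408 (0.71), Jheh2 (0.35) and Jheh3 (0.52). Pigment and eye genes were v (0.44), yellow-f2 (0.82), Ddc (0.26) and ninaG (0.99). The chaperones among the 36 had more negative values, with Hsp23 at -1.73, Hsp27 at -1.69, Hsp70Bc at -1.08 and Gp93 at -0.37. Of all 11 small heat shock proteins tested 3 were called more negative and 0 more positive. Of the 21 genes of the wider Hsp70 and Hsp90 list 1 was more negative and 2 more positive, with a median of 0.08.

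Among genes of the sense organs the values were 2.37 for Obp99a, 0.33 for Obp56g, -0.39 for Obp57a and 3.76 for Ir92a. IM2 was at -0.70, Stat92E at 0.27, Syx1A at -0.22 and RpS15Ab at 0.52. The remaining genes were CG18673 (3.12), CG33926 (2.14), CG31205 (1.74), Dhc98D (0.86), CG13794 (0.79), CG15510 (-3.78), Unc-115b (-5.48) and p24-2 (-5.36).

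Of the 36 differences 24 kept their call whichever 1 of the 16 libraries was left out. The other 12 were lost without at least 1 library, with a highest edgeR adjusted p of 0.0688 for CG15510, 0.0798 for CG33926, 0.0973 for Gp93, 0.0673 for Hsp23, 0.0869 for Hsp27, 0.102 for Hsp70Bc, 0.0883 for IM2, 0.0999 for Obp56g, 0.0953 for Obp57a, 0.0694 for Obp99a, 0.0958 for Syx1A and 0.0542 for Ugt86De.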

How the results depend on the processing

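The number of genes called between Chrom3-160R and Chrom2-160R was 3043, 3260 in DESeq2, 3118 in limma-voom, 3262 with plain library totals, 2733 without a filter on low counts, 3048 with the stricter filter, 2152 without genes that overlap one with at least as many counts, and 2326 with Chrom2-160R replicates 1 and 2 left out. Leaving out 1 library gave 2191 to 3026 calls, 509 to 657 calls of at least 1.5-fold, 3291 to 4359 calls between the 5R lines and 584 to 1695 calls for the difference of the line differences. Without overlapping genes 378 calls of at least 1.5-fold were left of 606. This alternative only dropped genes from the main fit, so no call of the other genes could change. The replicate numbers were not taken as pairs, since same-numbered libraries of Chrom2-160R and Chrom3-160R had correlations of -0.144, 0.0642, 0.196 and -0.247 in their deviations from the group means. With the replicate number as a block 2671 genes were called between the 160R lines, 582 at 1.5-fold or more, 3717 between the 5R lines and 647 for the difference of the line differences. The cause of that change was not tested, and among the genes named in the report the block ended the calls of ninaG (edgeR adjusted p = 0.0728) and Ppr-Y (0.0685). Of the 149 genes named by the rule, 92 kept their call under every alternative that gave a value and 0 changed sign. Depth limits the low genes, since Chrom2-160R libraries held fewer counts than Chrom3-160R libraries.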
